A study of Mus musculus with 12 samples.

Results

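The comparison set 3 libraries of E13.5 p18mKO2+ tissue against 3 libraries of E16.5 p18mKO2- tissue, 6 of the 12 libraries of the series, chosen by their titles. It addresses which features of normal later cortex were present at the earlier stage in tissue labelled as overexpressing p18. All libraries are polyadenylated RNA from the ventricular zone of mouse dorsal cortex, cut out by laser microdissection. The mice were built with a ROSA26 cassette in which a loxP-flanked stop precedes p18-P2A-mKO2, so that Cre recombination switches on the cyclin-dependent kinase inhibitor p18 (product of Cdkn2c) and the fluorescent protein mKO2. Tamoxifen was given in all 4 groups, controls included. By the labels the genotype of E13.5 p18mKO2+ is p18mKO2 overexpression and that of E16.5 p18mKO2- is normal. The other groups, drawn on here only as reference, are E13.5 p18mKO2- (normal) and E16.5 p18mKO2+ (overexpression), with 3 libraries each. Not given in the sources used here were the Cre driver, the tamoxifen day and the share of recombined cells. Stage and p18 status both differ between the 2 groups compared, so within this contrast their parts cannot be told apart.

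Radial glia, the dividing stem cells of the cortex, have their cell bodies in the ventricular zone along the wall of the ventricle. They first make neurons, the deep-layer types before the upper-layer types, and later astrocytes. Over the same days their cell cycle lengthens, Notch signalling keeps part of them undifferentiated, and genes of early progenitors such as Hmga2 and the Igf2bp family are turned down. Gene groups that follow this order give a molecular reading of how late a tissue looks.

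Total estimated counts per library lay between 17101971 and 21837088. Whether replicates are separate embryos is not stated in the labels, so each p-value reflects variation among these libraries, part of which may be technical. Expression values are CPM (counts scaled to the TMM-adjusted library size), given for replicates 1, 2 and 3 in that order, and log2 differences are E13.5 p18mKO2+ minus E16.5 p18mKO2- with their SE. A gene was called at an edgeR quasi-likelihood adjusted p under 0.05, and was described as within 2-fold when the 95% interval of its log2 difference lay between -1 and 1. The groups of 3 did not overlap in 20.5% of genes tested, the background for each statement on overlap. In bulk tissue, fewer cells of a type and less RNA per cell cannot be told apart.

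Libraries of E13.5 p18mKO2+ are called early replicates and those of E16.5 p18mKO2- late replicates where single libraries are left out. Some libraries stood apart. Early replicate 3 held both Xist (1246 CPM) and Y-linked transcripts (88.9 CPM summed), whereas the other 5 libraries of the comparison held mainly one or the other. The nuclear-retained Xist RNA marks female cells, so this library holds transcripts of both sexes. The ribosomal RNA gene CT010467.1 took 4.41, 6.64 and 2.81% of counts in E13.5 p18mKO2+ and 13.6, 8.40 and 6.28% in E16.5 p18mKO2-. This share was on average higher in E16.5 p18mKO2-, with overlap of the groups. Its part in the results was not tested beyond refits with it as a covariate, which partly takes up the group difference itself. Libraries also differed in their mean log2 level of gene lists, given relative to E13.5 p18mKO2-. Pan-neuronal genes lay at 1.00, 0.66 and 1.82 in E13.5 p18mKO2+ and at 1.47, 1.41 and 2.15 in E16.5 p18mKO2-, so replicate 3 was the highest of each group. Replicate 3 was also the lowest of each group in mitosis and radial glia genes, and late replicate 3 in Notch genes (-0.69, -0.77 and -1.38 in E16.5 p18mKO2-). The part of these spreads in the progenitor and neuronal differences was not tested beyond the fits without 1 library.

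Markers of dorsal progenitors were present in every library. Pax6, a transcription factor of cortical radial glia, stood at 138, 150 and 106 CPM in E13.5 p18mKO2+ and at 125, 128 and 75.1 CPM in E16.5 p18mKO2-. Emx1, a homeobox gene of the dorsal telencephalon, stood at 55.1, 75 and 26.8 CPM in E13.5 p18mKO2+ and at 56.3, 55.3 and 33.8 CPM in E16.5 p18mKO2-. The ranges of both genes overlapped between the groups. Eomes, a marker of intermediate progenitors, stood at 314, 337 and 148 CPM in E13.5 p18mKO2+ and at 386, 307 and 247 CPM in E16.5 p18mKO2-. Neuronal transcripts were also abundant, with Tubb3, a neuronal tubulin, at 1001, 918 and 1175 CPM in E13.5 p18mKO2+ and at 1231, 1201 and 1377 CPM in E16.5 p18mKO2-, so the cut tissue was not progenitors alone.

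The gene of the overexpressed protein was not called. Cdkn2c (GRCm38 chromosome 4) stood at 22.9, 32.6 and 21.6 CPM in E13.5 p18mKO2+ and at 22.5, 31.8 and 15.1 CPM in E16.5 p18mKO2-, with means of 25.7 ± 6.0 and 23.1 ± 8.36 CPM (SD, n = 3 each). The difference of 2.57 CPM gave p = 0.700 in an exact two-sided permutation test, and 3 libraries against 3 cannot go below 0.1. In TPM, which divides by transcript length, the means were 30.2 ± 2.48 and 20.6 ± 7.56 and the difference of 9.55 had an exact permutation p of 0.200. The edgeR log2 difference was 0.15 ± 0.26 (adjusted p = 0.851, 95% interval -0.40 to 0.70). In CPM the difference lay at -0.870 without early replicate 2 and at -1.43 without late replicate 3. Counts of this gene did not show the overexpression given in the titles and genotype labels. The sources do not state whether transgene reads are counted under Cdkn2c.

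Over the whole transcriptome the early p18 libraries lay closer to normal E16.5 than normal E13.5 did. With edgeR, 230 of 16798 tested genes (1.37%) were higher and 308 (1.83%) lower in E13.5 p18mKO2+ than in E16.5 p18mKO2-, 538 in all (3.20%). The same fit called 5005 genes (29.8%) between E16.5 p18mKO2- and E13.5 p18mKO2-, 2760 of them higher (16.4%) and 2245 lower (13.4%) at the later stage. Between E13.5 p18mKO2+ and E13.5 p18mKO2- it called 1810 (10.8%), with 1224 higher (7.29%) and 586 lower (3.49%) in E13.5 p18mKO2+. These comparisons share libraries, so their counts are given side by side only. In 54.4% of genes no call was made and the 95% interval lay within 2-fold. The root mean squared log2 CPM distance between libraries averaged 0.99 for E13.5 p18mKO2+ to E16.5 p18mKO2- (range over 9 pairs 0.82 to 1.13). It averaged 1.08 (0.92 to 1.23) for E13.5 p18mKO2+ to E13.5 p18mKO2- and 1.32 (1.15 to 1.51) for E13.5 p18mKO2- to E16.5 p18mKO2-. Distances within a group averaged 0.89 in E13.5 p18mKO2+, 0.90 in E16.5 p18mKO2- and 1.01 in E13.5 p18mKO2-, so 0.99 and 1.08 both lay not far above those among replicates. Over genes with a mean CPM of at least 5, E13.5 p18mKO2+ lay at 0.65 from E16.5 p18mKO2- and at 0.72 from E13.5 p18mKO2-. Within groups these distances were 0.50 in E13.5 p18mKO2+, 0.58 in E16.5 p18mKO2- and 0.54 in E13.5 p18mKO2-. The count of 538 was 236 without early replicate 1, 339 without early replicate 2, 317 without late replicate 2 and 346 without late replicate 3. It was 193 with the ribosomal RNA level and 271 with Y-linked expression as a covariate, both chosen after seeing the data.

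Genes that differ between the other 2 groups were also followed in the comparison. Those groups differ in both stage and p18 status, and the fit that called them shares its filter, scaling and spread with the 6 libraries. Between E16.5 p18mKO2+ and E13.5 p18mKO2-, edgeR called 2730 genes higher (16.3%) and 2282 lower (13.6%) in E16.5 p18mKO2+. Of the 2730, 295 (10.8%) were called lower in E13.5 p18mKO2+ than in E16.5 p18mKO2- and 3 (0.110%) higher, beside 1.83 and 1.37% of all genes. Their median log2 difference was -0.38 (quartiles -0.69 and -0.18). Of the 2282, 167 (7.32%) were called higher and 2 (0.0876%) lower, with a median of 0.33 (quartiles 0.14 and 0.62). Over all genes tested the median was 0.01. The median of the first set thus lay below, and that of the second above, the normal E16.5 level. Not called and within 2-fold were 54.7% of the first set and 62.1% of the second, near or somewhat above the 54.4% of all genes.

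**Figure D1:**
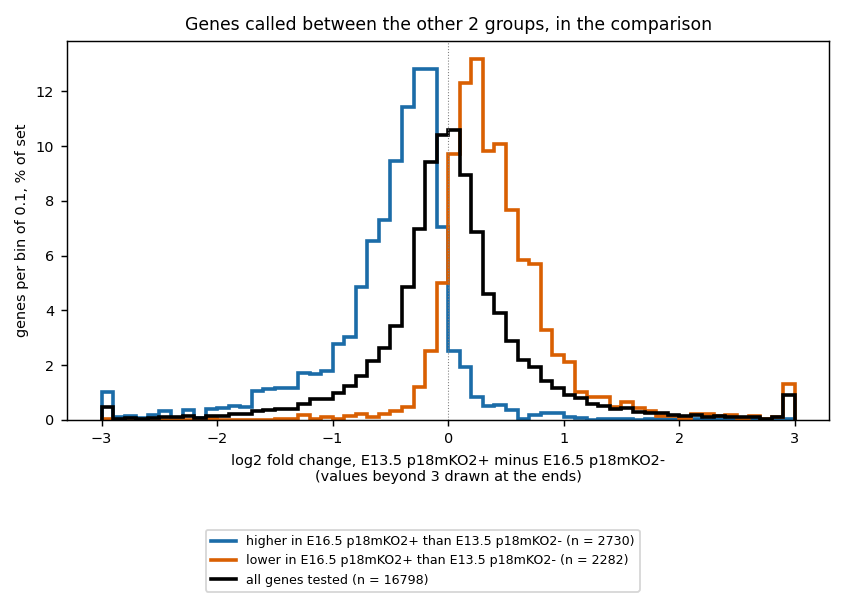
Distribution of the log2 difference, E13.5 p18mKO2+ minus E16.5 p18mKO2- (x axis), as percent of each set per bin (y axis). Genes called higher in E16.5 p18mKO2+ than in E13.5 p18mKO2- (blue) have a median of -0.38, genes called lower (orange) a median of 0.33, and all genes (black) a median of 0.01.

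Gene lists, each a set of genes with a shared role, divided into groups at the E16.5 level, below it and above it. The background for each list is 1.37% of all genes higher, 1.83% lower and 54.4% within 2-fold without a call. The plot of list levels shows their mean log2 CPM per library relative to E13.5 p18mKO2-.

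**Figure D2:**
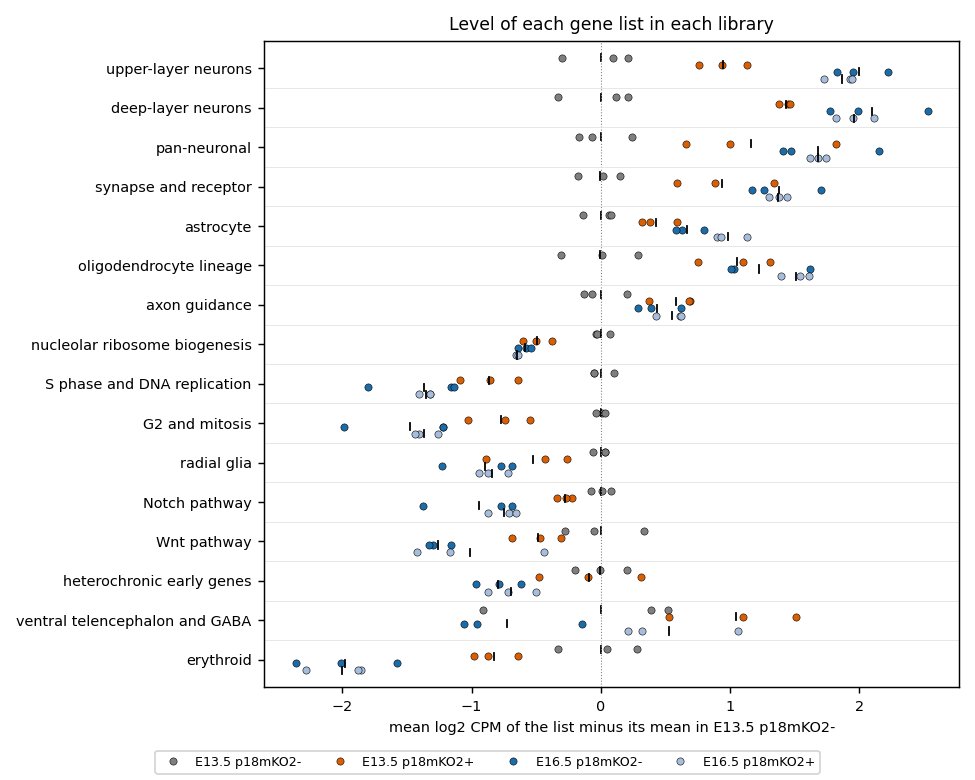
Mean log2 CPM of 16 gene lists in each library (points) relative to the mean of E13.5 p18mKO2- (x axis), with group means as short bars. Nucleolar genes lie at overlapping levels in the groups compared, and ventral telencephalon genes are higher in E13.5 p18mKO2+. Upper-layer genes lie between 0.76 and 1.13 in E13.5 p18mKO2+ and between 1.83 and 2.22 in E16.5 p18mKO2-.

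**Figure D3:**
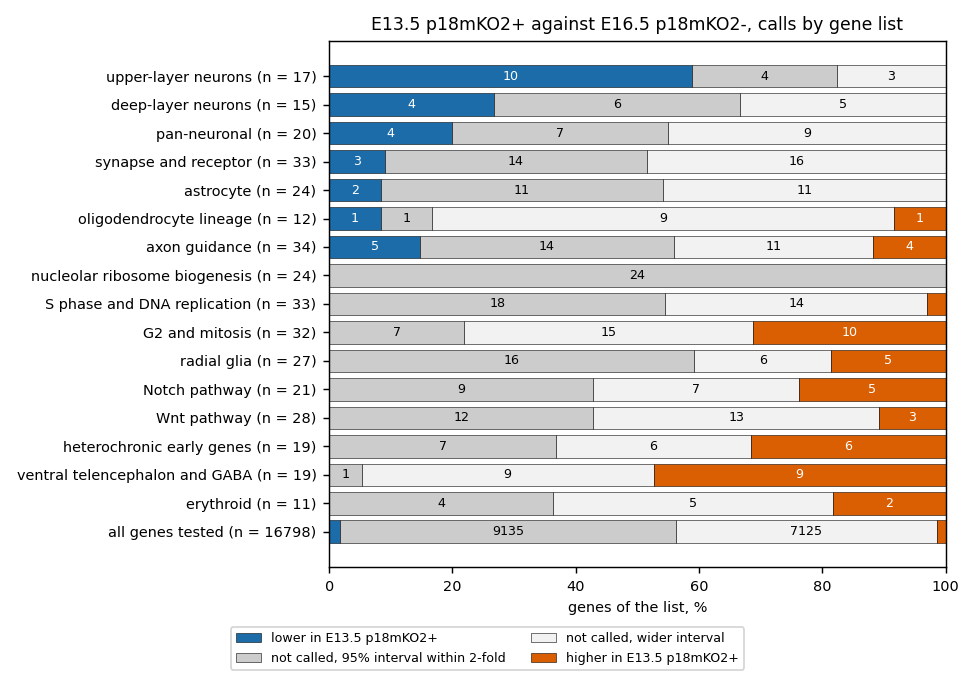
Share of each list's tested genes (x axis) called lower (blue), called higher (orange), or not called with the 95% interval within 2-fold (dark grey) or wider (light grey) in E13.5 p18mKO2+ against E16.5 p18mKO2-, with counts printed in the bars. Of 17 upper-layer genes 10 were lower, of 24 nucleolar genes 24 were within 2-fold, and the bottom bar gives all 16798 genes tested.

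Ribosome-making genes were near the E16.5 level. The nucleolus assembles ribosomal subunits, and its 24 listed genes were all not called and within 2-fold, with a median log2 difference of 0.04. Beside this, 16 of 24 were lower in E16.5 p18mKO2- than in E13.5 p18mKO2- (median -0.57) and 13 of 24 were lower in E13.5 p18mKO2+ (median -0.49). The median stage change of -0.57 itself lay within 2-fold, so lying within 2-fold does not by itself place this list at either stage. Mean log2 list levels overlapped, at -0.50, -0.38 and -0.60 in E13.5 p18mKO2+ and at -0.58, -0.54 and -0.64 in E16.5 p18mKO2-. E13.5 p18mKO2- lay at -0.04, 0.07 and -0.03 on the same scale. Ncl, which encodes the abundant nucleolar protein nucleolin, stood at 571, 619 and 548 CPM in E13.5 p18mKO2+ and at 569, 563 and 641 CPM in E16.5 p18mKO2-. At 831, 875 and 729 CPM, E13.5 p18mKO2- lay above both. The log2 difference of Ncl was -0.03 ± 0.13 with a 95% interval of -0.30 to 0.24. Nolc1, a nucleolar chaperone, had an interval of -0.26 to 0.33 and Utp4, a small-subunit processing factor, one of -0.29 to 0.32.

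Among neuronal transcription factors the deep-layer genes were partly at the E16.5 level. Sox5, a regulator of subplate and layer 6 neurons, stood at 295, 282 and 175 CPM in E13.5 p18mKO2+ and at 301, 288 and 266 CPM in E16.5 p18mKO2-, against 105, 68.2 and 111 CPM in E13.5 p18mKO2-. The groups compared overlapped, with a log2 difference of -0.18 ± 0.21 (95% interval -0.63 to 0.27). Bcl11b, a regulator of subcortical projection neurons, stood at 343, 339 and 304 CPM in E13.5 p18mKO2+ and at 212, 208 and 306 CPM in E16.5 p18mKO2-. It lay within 2-fold and was not called (log2 difference 0.44 ± 0.19, edgeR adjusted p = 0.254). Of 15 deep-layer genes, 6 were within 2-fold without a call (Bcl11b, Fezf2, Sox5, Foxp2, Zfpm2 and Lmo3) and 4 were called lower, with a list median of -0.45. Beside this, 11 of 15 were higher in E16.5 p18mKO2- and 10 of 15 in E13.5 p18mKO2+ than in E13.5 p18mKO2-.

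The lower deep-layer genes were Hs3st4, Tle4, Ldb2 and Nfe2l3. Hs3st4, a heparan sulfate sulfotransferase gene of layer 6, stood at 18.2, 24 and 26.8 CPM in E13.5 p18mKO2+ and at 67.7, 86.7 and 125 CPM in E16.5 p18mKO2- (log2 difference -2.01 ± 0.32, edgeR adjusted p = 0.00397). Tle4, a corepressor of corticothalamic neurons, stood at 93.4, 71.7 and 81 CPM in E13.5 p18mKO2+ and at 139, 148 and 136 CPM in E16.5 p18mKO2- (log2 difference -0.78 ± 0.14, edgeR adjusted p = 0.00941). Neither gene had overlapping groups. Among the 8 largest decreases was Ntsr1, a neurotensin receptor gene of corticothalamic neurons, at 6.06, 6.58 and 5.76 CPM in E13.5 p18mKO2+ and at 56.9, 50.7 and 37.4 CPM in E16.5 p18mKO2- (log2 difference -2.98 ± 0.24, edgeR adjusted p = 7.19e-05). All 3 early values of Ntsr1 lay far below the E16.5 values, though lack of overlap was a condition of its choice. The count of 4 lower deep-layer genes was 2 without early replicate 1 or replicate 2.

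Upper-layer neuron genes lay well below the E16.5 level. Of 17 tested, 10 were lower and 0 higher, with a median log2 difference of -1.20, beside 1.83% lower among all genes. Against E13.5 p18mKO2- they were nonetheless raised in 8 of 17 genes in E13.5 p18mKO2+ (median 0.68) and in 13 of 17 in E16.5 p18mKO2- (median 2.12). Mef2c, a transcription factor of maturing neurons, stood at 72.7, 72.3 and 68.7 CPM in E13.5 p18mKO2+ and at 324, 328 and 541 CPM in E16.5 p18mKO2- (log2 difference -2.48 ± 0.27, edgeR adjusted p = 0.000387). The POU factor gene Pou3f2 stood at 189, 227 and 175 CPM in E13.5 p18mKO2+ and at 514, 525 and 675 CPM in E16.5 p18mKO2- (log2 difference -1.54 ± 0.19, edgeR adjusted p = 0.000806). Cux2, a homeobox gene of upper-layer neurons and their progenitors, stood at 72.7, 91.5 and 102 CPM in E13.5 p18mKO2+ and at 224, 181 and 208 CPM in E16.5 p18mKO2- (log2 difference -1.20 ± 0.16, edgeR adjusted p = 0.00148). In none of these 3 genes did the groups overlap, and each was called in all 15 alternative fits. Other lower members included Pou3f1, Pou3f3, Unc5d, Bhlhe22, Inhba and Dok5. Leaving out 1 library gave 9 to 12 lower genes, and the ribosomal RNA covariate gave 5.

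Some general neuronal and synaptic genes were lower than in E16.5 p18mKO2-. Of 20 pan-neuronal genes, 4 were lower (Mapt, Stmn4, Rbfox1 and Myt1l) and 7 within 2-fold without a call, with a median of -0.43. Myt1l, a repressor of non-neuronal genes, was at 142, 127 and 170 CPM in E13.5 p18mKO2+ and at 417, 315 and 327 CPM in E16.5 p18mKO2- (log2 difference -1.27 ± 0.17, edgeR adjusted p = 0.00148). Rbfox1, a neuronal splicing factor gene, was at 47.5, 43.9 and 57 CPM in E13.5 p18mKO2+ and at 126, 110 and 168 CPM in E16.5 p18mKO2- (log2 difference -1.44 ± 0.21, edgeR adjusted p = 0.00264). Neither gene's groups overlapped. Elavl3, a neuronal RNA-binding protein gene, overlapped at 630, 604 and 774 CPM in E13.5 p18mKO2+ and at 764, 631 and 913 CPM in E16.5 p18mKO2- (95% interval -0.59 to 0.19). Of 33 synapse and receptor genes, 3 were lower (Grin2b, Homer1 and Nlgn1) and 14 within 2-fold without a call, with a median of -0.46. Grin2b, an NMDA receptor subunit gene, stood at 70.4, 39 and 92.8 CPM in E13.5 p18mKO2+ and at 175, 152 and 246 CPM in E16.5 p18mKO2- (log2 difference -1.50 ± 0.29, edgeR adjusted p = 0.0128). Nptx1, a secreted synaptic pentraxin gene, overlapped at 23.5, 23.3 and 16.4 CPM in E13.5 p18mKO2+ and at 19.9, 18.1 and 26.6 CPM in E16.5 p18mKO2- (95% interval -0.47 to 0.41). Both lists spread widely among libraries. The 4 pan-neuronal calls became 2 without early replicate 1, its replicate 2 or late replicate 3, and 6 without early replicate 3. The 3 synaptic calls became 7 without early replicate 3, 5 without late replicate 1, and 2 without early replicate 1 or 2 or late replicate 3.

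Astrocyte genes gave a mixed picture. Of 24 tested, 2 were lower, 0 higher and 11 within 2-fold without a call, with a median of -0.21, beside 1.83% lower and 54.4% within 2-fold among all genes. Aldh1l1, a folate enzyme gene used as an astrocyte marker, stood at 16, 16 and 10.9 CPM in E13.5 p18mKO2+ and at 17, 20.3 and 16.7 CPM in E16.5 p18mKO2-, against 3.22, 4.72 and 2.75 CPM in E13.5 p18mKO2-. Its interval of -0.80 to 0.13 lay within 2-fold. Slc1a3, a glutamate transporter gene of radial glia and astrocytes, also lay within 2-fold at 151, 154 and 99.7 CPM in E13.5 p18mKO2+ and at 171, 189 and 150 CPM in E16.5 p18mKO2- (95% interval -0.69 to 0.03). Glul, glutamine synthetase, had an interval of -0.56 to 0.04. Neither Slc1a3 nor Glul was called between E13.5 p18mKO2+ and E13.5 p18mKO2- (edgeR adjusted p = 0.203 and 0.380). From E13.5 to E16.5 p18mKO2- they rose by a log2 difference of only 0.69 and 0.47. Lying within 2-fold therefore does not tell the E16.5 level from the E13.5 level for these 2 genes. Below the E16.5 level was Sparcl1, a matricellular protein gene, at 46.2, 46.3 and 41.5 CPM in E13.5 p18mKO2+ and at 82.6, 111 and 143 CPM in E16.5 p18mKO2- (log2 difference -1.33 ± 0.20, edgeR adjusted p = 0.00288). Slc6a11, a GABA transporter gene, averaged 9.58 ± 1.34 and 18.4 ± 2.15 CPM (SD, n = 3 each; log2 difference -0.94 ± 0.21, edgeR adjusted p = 0.0264). Neither Sparcl1 nor Slc6a11 had overlapping groups, and the count of 2 was 1 without early replicate 1 or 2. The call of Slc6a11 was lost in 4 of 6 fits without 1 library (edgeR adjusted p 0.0542, 0.104 and 0.0551 without early replicates 1, 2 and 3, and 0.0809 without late replicate 3). Gfap, the intermediate filament gene of mature astrocytes, was scarce, at 0.145, 0.0914 and 0.341 CPM in E13.5 p18mKO2+ and at 0.982, 0.763 and 1.10 CPM in E16.5 p18mKO2-, and was not called (edgeR adjusted p = 0.134).

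Among 28 regulators of glial fate tested, 2 were higher, 2 lower and 11 within 2-fold without a call, beside 1.37, 1.83 and 54.4% of all genes. Nfia, a nuclear factor that promotes astrocyte genes, overlapped at 574, 577 and 334 CPM in E13.5 p18mKO2+ and at 480, 403 and 540 CPM in E16.5 p18mKO2- (95% interval -0.40 to 0.53). Id4, an inhibitor of proneural bHLH factors, was higher at 265, 312 and 288 CPM in E13.5 p18mKO2+ and at 109, 100 and 111 CPM in E16.5 p18mKO2- (log2 difference 1.44 ± 0.14, edgeR adjusted p = 0.000266), and E13.5 p18mKO2- was higher again at 647, 655 and 729 CPM. Id2, of the same family, was lower at 96.2, 123 and 78.7 CPM in E13.5 p18mKO2+ and at 209, 265 and 463 CPM in E16.5 p18mKO2- (log2 difference -1.65 ± 0.31, edgeR adjusted p = 0.0107). The groups overlapped for neither gene, and Id4 was called in all 15 alternative fits. Olig1, an oligodendrocyte lineage factor, was lower at 5.62, 3.38 and 2.86 CPM in E13.5 p18mKO2+ and at 7.92, 9.56 and 11.7 CPM in E16.5 p18mKO2- (log2 difference -1.30 ± 0.31, edgeR adjusted p = 0.0384). Its call was lost in 4 of 6 fits without 1 library, with edgeR adjusted p of 0.139 and 0.0893 without early replicates 2 and 3, and 0.0907 and 0.118 without late replicates 2 and 3. Of 12 oligodendrocyte lineage genes, 1 was higher and 1 lower, the latter being Olig1, beside 1.37 and 1.83% of all genes.

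Of 17 genes of the gliogenic cytokine pathway, 1 was higher, 1 lower and 9 within 2-fold without a call, with a median of 0.07, beside 1.37, 1.83 and 54.4% of all genes. Cytokines of the CNTF family act through Cntfr and JAK-STAT to activate astrocyte genes. The higher gene was Cntfr, the CNTF receptor alpha chain, at 80.5, 99.8 and 89.8 CPM in E13.5 p18mKO2+ and at 37.3, 32.6 and 32.7 CPM in E16.5 p18mKO2- (log2 difference 1.40 ± 0.13, edgeR adjusted p = 0.000187). Its groups did not overlap, and it was called in all 15 alternative fits. The kinase gene Jak1 was within 2-fold (95% interval -0.55 to 0.12), as was Jak2 (-0.74 to -0.17).

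**Figure D4:**
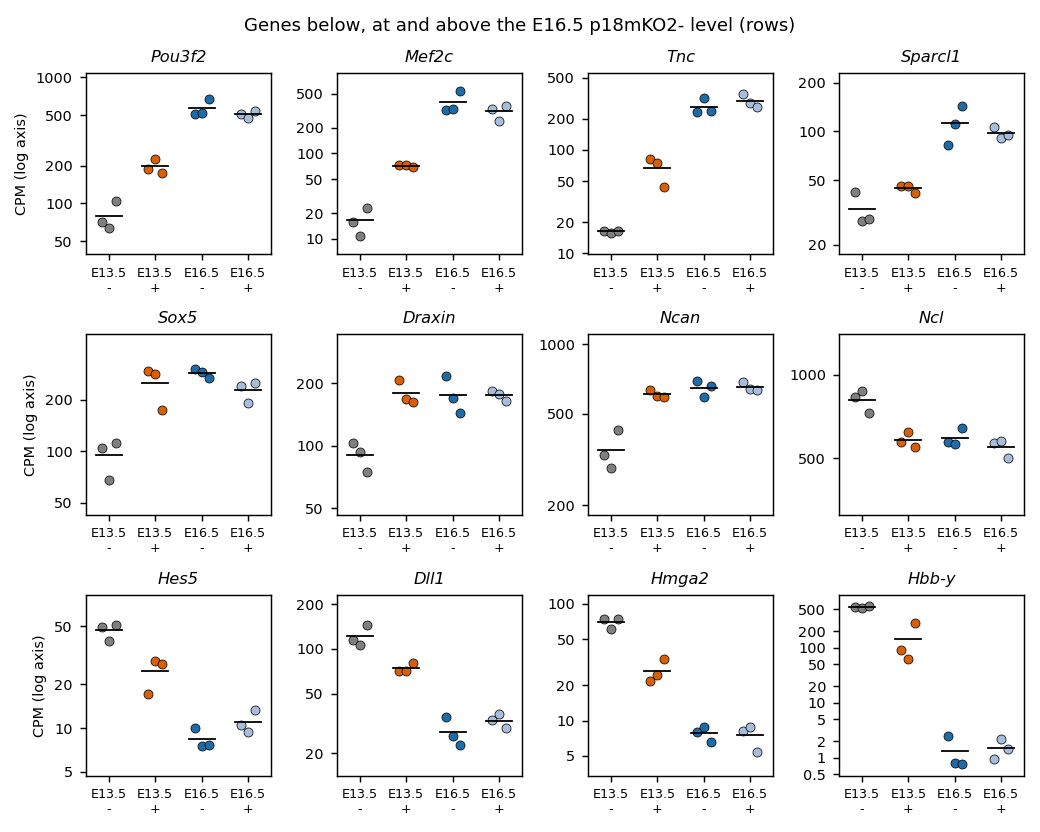
CPM of 12 genes in each library (points, log axis) with group means as bars, for p18mKO2- and p18mKO2+ at each stage. In the top row E13.5 p18mKO2+ lies below E16.5 p18mKO2- (Pou3f2, Mef2c, Tnc, Sparcl1), in the middle row the 2 groups overlap (Sox5, Draxin, Ncan, Ncl), and in the bottom row E13.5 p18mKO2+ lies above (Hes5, Dll1, Hmga2, Hbb-y).

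Matrix and guidance genes also lay on both sides. Tnc, the tenascin-C glycoprotein gene found in outer radial glia, stood at 81.8, 75.4 and 43.5 CPM in E13.5 p18mKO2+ and at 233, 317 and 238 CPM in E16.5 p18mKO2- (log2 difference -1.97 ± 0.21, edgeR adjusted p = 0.000387), and at 16.6, 15.8 and 16.6 CPM in E13.5 p18mKO2-. Its groups did not overlap, and it was called in all 15 alternative fits. Ptprz1, a receptor phosphatase gene of the same cells, was lower at 468, 423 and 399 CPM in E13.5 p18mKO2+ and at 616, 738 and 651 CPM in E16.5 p18mKO2- (log2 difference -0.64 ± 0.12, edgeR adjusted p = 0.0124), with adjusted p of 0.0504 without late replicate 2 by edgeR. Tnc and Ptprz1 were the only calls among 12 outer radial glia-linked genes tested, beside 1.83% lower among all genes. The median of that list was -0.08, and 5 of its genes were within 2-fold without a call. Ncan, the proteoglycan neurocan, overlapped at 637, 597 and 592 CPM in E13.5 p18mKO2+ and at 693, 590 and 663 CPM in E16.5 p18mKO2- (95% interval -0.40 to 0.22), against 331, 291 and 423 CPM in E13.5 p18mKO2-. Of 34 axon guidance genes, 4 were higher (Robo3, Dcc, Ntn1 and Nrp2), 5 lower (Robo2, Unc5d, Plxna4, Sema3a and Sema3c) and 14 within 2-fold without a call.

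Robo2, a Slit receptor gene, was lower at 212, 251 and 244 CPM in E13.5 p18mKO2+ and at 490, 471 and 558 CPM in E16.5 p18mKO2- (log2 difference -1.10 ± 0.19, edgeR adjusted p = 0.00617). Sema3c, a secreted semaphorin gene, was lower at 40, 40.5 and 31.4 CPM in E13.5 p18mKO2+ and at 100, 109 and 135 CPM in E16.5 p18mKO2- (log2 difference -1.62 ± 0.22, edgeR adjusted p = 0.00148). Both differences were called in all 15 alternative fits, with no overlap of the groups. Draxin, a secreted repellent of commissural axons, overlapped at 207, 167 and 162 CPM in E13.5 p18mKO2+ and at 215, 170 and 143 CPM in E16.5 p18mKO2- (95% interval -0.34 to 0.38), above the 103, 93.3 and 74.2 CPM of E13.5 p18mKO2-. Robo3, a receptor of crossing axons, was higher at 6.21, 4.94 and 21.3 CPM in E13.5 p18mKO2+ and at 0.184, 0.407 and 0.174 CPM in E16.5 p18mKO2- (log2 difference 5.34 ± 0.64, edgeR adjusted p = 0.000654), E13.5 p18mKO2- standing at 31.7, 40.5 and 59.5 CPM. Early replicate 3 was the highest of its group for both Robo3 and Ntn1, the netrin gene (log2 difference 2.87 ± 0.55, edgeR adjusted p = 0.0128). Without 1 library, 2 to 5 guidance genes were higher (2 without early replicate 1 or 3 or late replicate 2) and 3 or 4 lower (3 without any 1 of these 3, or without early replicate 2 or late replicate 1).

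Some genes of mitosis were higher than in E16.5 p18mKO2-. Of 32 G2 and mitosis genes, 10 were higher (Bub1, Mad2l1, Cenpe, Kif20b, Kif23, Mki67, Hmmr, Ube2c, Smc2 and Ncapg), 0 lower and 7 within 2-fold without a call, with a median of 0.68, beside 1.37% higher among all genes. Of 33 S phase and DNA replication genes, 1 was higher, 0 lower and 18 within 2-fold without a call, with a median of 0.46. The share of S phase genes called was near that of all genes, but their mean log2 levels did not overlap. Relative to E13.5 p18mKO2- these stood at -0.86, -0.64 and -1.09 in E13.5 p18mKO2+ and at -1.16, -1.14 and -1.80 in E16.5 p18mKO2-. The groups did not overlap in 13 of 33 S phase and 22 of 32 mitosis genes, beside 20.5% of all genes. The difference between the lists was not tested. Beside this, all 32 mitosis genes and all 33 replication genes were lower in E16.5 p18mKO2- than in E13.5 p18mKO2- (medians -1.41 and -1.28), and 21 and 27 were lower in E13.5 p18mKO2+ (medians -0.77 and -0.84). Ube2c, the ubiquitin-conjugating enzyme of mitotic exit, stood at 122, 156 and 102 CPM in E13.5 p18mKO2+ and at 74.8, 71.5 and 45.7 CPM in E16.5 p18mKO2- (log2 difference 0.99 ± 0.19, edgeR adjusted p = 0.0138), and at 219, 245 and 226 CPM in E13.5 p18mKO2-. Ncapg, a condensin subunit gene, stood at 76.4, 70.3 and 57.3 CPM in E13.5 p18mKO2+ and at 43.2, 41.5 and 29.8 CPM in E16.5 p18mKO2- (log2 difference 0.83 ± 0.17, edgeR adjusted p = 0.0175). Mki67, a proliferation marker, stood at 523, 580 and 508 CPM in E13.5 p18mKO2+ and at 408, 335 and 301 CPM in E16.5 p18mKO2- (log2 difference 0.62 ± 0.15, edgeR adjusted p = 0.0398). None of these 3 had overlapping groups, and late replicate 3 was the lowest library in each. Slbp, the histone mRNA binding protein gene of S phase, overlapped at 56.5, 78.3 and 66.1 CPM in E13.5 p18mKO2+ and at 50, 60.6 and 66.4 CPM in E16.5 p18mKO2- (95% interval -0.19 to 0.55).

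The mitosis calls depended on single libraries. The 10 higher genes became 0 without early replicate 1, 0 without early replicate 2 and 3 without late replicate 3, and 8 or 9 without any other library. They were 0 with the 6 libraries fitted alone and 19 by DESeq2. The 1 higher S phase gene became 0 without early replicate 1 or 2 or late replicate 3 and with the 6 libraries alone. Ube2c and Ncapg had edgeR adjusted p of 0.0542 and 0.103 without early replicate 1, and 0.0592 and 0.0580 without early replicate 2. Mean list levels of the mitosis genes, relative to E13.5 p18mKO2-, were -0.74, -0.55 and -1.03 in E13.5 p18mKO2+ and -1.22, -1.22 and -1.99 in E16.5 p18mKO2- on the log2 scale.

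The promoters of 3 mitosis genes that hold both motifs are shown because cell-cycle genes of this phase share promoter elements, the CHR element TTTGAA and the CCAAT box. Sequences are the 250 bases before the RefSeq gene start on GRCm38.p6, given 5′ to 3′ on the gene's strand, with capitals marking TTTGAA or CCAAT on either strand, each with its reverse complement (TTCAAA and ATTGG), where a CCAAT may overlap an ATTGG. They lie at chr2:164769679-164769928 (plus strand) for Ube2c, chr7:135716380-135716629 (minus strand) for Mki67 and chr5:45669675-45669924 (plus strand) for Ncapg.
Ube2c: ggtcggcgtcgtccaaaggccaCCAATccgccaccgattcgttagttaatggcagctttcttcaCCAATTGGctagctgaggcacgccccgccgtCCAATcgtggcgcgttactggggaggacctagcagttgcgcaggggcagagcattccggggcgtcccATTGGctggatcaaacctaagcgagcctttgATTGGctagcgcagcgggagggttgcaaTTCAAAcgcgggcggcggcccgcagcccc
Mki67: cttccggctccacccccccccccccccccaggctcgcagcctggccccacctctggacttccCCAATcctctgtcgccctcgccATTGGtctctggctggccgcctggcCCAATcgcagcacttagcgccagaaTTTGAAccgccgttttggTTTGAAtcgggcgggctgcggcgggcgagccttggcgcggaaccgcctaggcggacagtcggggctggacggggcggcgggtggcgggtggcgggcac
Ncapg: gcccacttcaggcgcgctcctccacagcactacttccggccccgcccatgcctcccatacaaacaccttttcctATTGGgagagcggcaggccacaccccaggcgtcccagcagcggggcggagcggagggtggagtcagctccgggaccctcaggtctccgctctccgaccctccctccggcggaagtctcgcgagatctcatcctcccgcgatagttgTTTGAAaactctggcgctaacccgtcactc
CCAAT was found in 23 of 27 G2 and mitosis promoters (85.2%), in 16 of 27 S phase promoters (59.3%) and in 37.5% of 27025 promoters of the same length. TTTGAA was found in 10 of 27 (37%), 3 of 27 (11.1%) and 18.3%. The E2F-type letters TTTGGCGC or TTTCGCGC were found in 1 of 27 mitosis promoters (3.7%), 6 of 27 S phase promoters (22.2%) and 0.759% of all. Of the 10 mitosis genes called higher, 4 held TTTGAA (Mki67, Ncapg, Smc2 and Ube2c) and 8 held CCAAT, and Kif20b and Mad2l1 held neither. A match describes letters only.

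Among regulators of G1, 3 of 21 genes were higher and 0 lower, beside 1.37 and 1.83% of all genes. They were E2f2, E2f3 and Rbl1, the first at a log2 difference of 1.21 ± 0.26 (edgeR adjusted p = 0.0240). E2f2 is an activating E2F factor and Rbl1 the pocket protein p107. The count was 0 without early replicate 1 or 2 or late replicate 2, and 1 without late replicate 3. Ccnd2, the D-type cyclin gene of radial glia, had a log2 difference of 0.79 ± 0.20 and was not called (edgeR adjusted p = 0.0517).

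Notch signalling genes were in part above the E16.5 level, with 5 of 21 higher (Notch3, Dll1, Dll3, Hes5 and Dlk1), 0 lower and 9 within 2-fold without a call. Their median was 0.60, beside 1.37% higher and 54.4% within 2-fold among all genes. Beside this, 14 of 21 were lower in E16.5 p18mKO2- and 4 of 21 in E13.5 p18mKO2+ than in E13.5 p18mKO2-. The ligand gene Dll1 stood at 71.7, 71 and 80.2 CPM in E13.5 p18mKO2+ and at 34.9, 26.2 and 22.6 CPM in E16.5 p18mKO2- (log2 difference 1.41 ± 0.17, edgeR adjusted p = 0.000806). The target gene Hes5, an effector that holds radial glia undifferentiated, stood at 17.1, 28.9 and 27.7 CPM in E13.5 p18mKO2+ and at 9.95, 7.53 and 7.59 CPM in E16.5 p18mKO2- (log2 difference 1.56 ± 0.23, edgeR adjusted p = 0.00254), and at 49.4, 39.6 and 51.2 CPM in E13.5 p18mKO2-. No groups overlapped, and both genes were called in all 15 alternative fits. The receptor gene Notch3, also expressed by pericytes, stood at 75.7, 68.1 and 64.1 CPM in E13.5 p18mKO2+ and at 37.1, 31.6 and 14.6 CPM in E16.5 p18mKO2- (log2 difference 1.32 ± 0.27, edgeR adjusted p = 0.0187), with an edgeR adjusted p of 0.0869 without early replicate 1. The count of 5 was 3 without that library and 4 or 5 without any other.

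Of 27 radial glia genes tested, 5 were higher (Sox2, Hes5, Sox9, Sox3 and Nr2e1), 0 lower and 16 within 2-fold without a call, with a median of 0.41, beside 1.37% higher and 54.4% within 2-fold among all genes. Mean list levels overlapped, at -0.43, -0.26 and -0.89 in E13.5 p18mKO2+ and at -0.69, -0.77 and -1.23 in E16.5 p18mKO2- on the log2 scale relative to E13.5 p18mKO2-, with early replicate 3 below 2 of the late libraries. Sox2, a stem cell factor, stood at 120, 149 and 117 CPM in E13.5 p18mKO2+ and at 78.9, 74.9 and 88.7 CPM in E16.5 p18mKO2- (log2 difference 0.67 ± 0.14, edgeR adjusted p = 0.0177). Sox9, a regulator of stem cells and gliogenesis, stood at 99.8, 90.3 and 71.7 CPM in E13.5 p18mKO2+ and at 59.8, 42.7 and 37 CPM in E16.5 p18mKO2- (log2 difference 0.91 ± 0.22, edgeR adjusted p = 0.0350). Their groups did not overlap. The edgeR adjusted p of Sox2 was 0.0553, 0.0818 and 0.0788, and that of Sox9 0.171, 0.0987 and 0.120, without early replicate 1, early replicate 2 and late replicate 2 in turn, and that of Sox9 was 0.120 without late replicate 3. The count of 5 was 1 without early replicate 1 or 2 or late replicate 2, and 2 without late replicate 3. In the list of intermediate progenitor and proneural genes 4 of 18 were higher. They included the neuronal bHLH factor gene Nhlh1, at 55.3, 58.6 and 37.3 CPM in E13.5 p18mKO2+ and at 26.8, 16.6 and 9.73 CPM in E16.5 p18mKO2- (log2 difference 1.51 ± 0.33, edgeR adjusted p = 0.0247), without overlap. Neurog2, the main proneural gene of dorsal cortex, overlapped at 180, 254 and 133 CPM in E13.5 p18mKO2+ and at 187, 161 and 189 CPM in E16.5 p18mKO2- (95% interval -0.42 to 0.58). Without 1 library, 1 to 4 of these genes were higher, with 1 without early replicate 1 or late replicate 2 or 3, and 2 without early replicate 2.

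Some genes listed as early progenitor genes were above the E16.5 level. Of 19 genes listed as heterochronic, that is, as declining when neural tissue ages, 6 were higher (Igf2bp1, Igf2bp2, Igf2bp3, Hmga2, Dlk1 and Peg10) and 0 lower. Within 2-fold without a call were 7, among them Hmga1, Mycn and Myc. Against E13.5 p18mKO2-, 9 of 19 were lower in E16.5 p18mKO2- (median -0.82) and 3 of 19 in E13.5 p18mKO2+ (median -0.00). Hmga2, a chromatin protein gene, stood at 21.9, 24.4 and 34 CPM in E13.5 p18mKO2+ and at 7.98, 8.80 and 6.55 CPM in E16.5 p18mKO2- (log2 difference 1.78 ± 0.22, edgeR adjusted p = 0.000937), and at 74.4, 61.5 and 74.7 CPM in E13.5 p18mKO2-. Its 3 groups did not overlap, and it was called in all 15 alternative fits. Igf2bp1, an mRNA-binding protein gene, stood at 102, 105 and 107 CPM in E13.5 p18mKO2+ and at 72.4, 53.6 and 44.7 CPM in E16.5 p18mKO2- (log2 difference 0.88 ± 0.18, edgeR adjusted p = 0.0173). Peg10, an imprinted gene, stood at 224, 84.7 and 237 CPM in E13.5 p18mKO2+ and at 46, 46.4 and 33.7 CPM in E16.5 p18mKO2- (log2 difference 2.11 ± 0.37, edgeR adjusted p = 0.00701), with replicate 2 the lowest of the early libraries. Igf2bp1 had edgeR adjusted p of 0.0704, 0.0708 and 0.0556 without early replicate 1, late replicate 2 and late replicate 3. Dlk1 was called in only 1 of 6 fits without 1 library. Peg10 and Dlk1 were not called between E13.5 p18mKO2+ and E13.5 p18mKO2- (log2 differences 0.56 and 1.03, edgeR adjusted p = 0.349 and 0.253). The count of 6 was 3 without early replicate 1 or late replicate 1 or 2, and 1 with the ribosomal RNA covariate.

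Wnt pathway genes had 3 of 28 higher, 0 lower and 12 within 2-fold without a call, with a median of 0.51, beside 1.37, 1.83 and 54.4% of all genes. Lef1, a transcription factor of Wnt targets, stood at 23.4, 22 and 38 CPM in E13.5 p18mKO2+ and at 7.67, 2.75 and 4.81 CPM in E16.5 p18mKO2- (log2 difference 2.46 ± 0.36, edgeR adjusted p = 0.00264). Tcf7l1, a repressor of the same family, stood at 34.2, 36.2 and 25.6 CPM in E13.5 p18mKO2+ and at 17.3, 15.4 and 7.42 CPM in E16.5 p18mKO2- (log2 difference 1.26 ± 0.26, edgeR adjusted p = 0.0173). Neither had overlapping groups, and Tcf7l1 had edgeR adjusted p of 0.0761 and 0.0592 without early replicates 1 and 2. Wnt8b, a hem-derived ligand, had 237 counts over E13.5 p18mKO2+ and 0 over E16.5 p18mKO2-, at least 63.7-fold higher with 3 counts summed over the group as the floor, and was not called (edgeR adjusted p = 0.0591). The count of 3 was 1 without early replicate 1, and 2 without early replicate 2 or any 1 of the E16.5 p18mKO2- libraries.

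Polycomb genes, which repress developmental loci, gave 0 calls by edgeR in 25 tested, and 22 of them were within 2-fold. From E13.5 to E16.5 p18mKO2- 9 of 25 were lower and 2 higher (median -0.16). Lying within 2-fold therefore does not place this list at either stage. Suz12, a core subunit, lay at a log2 difference of 0.47 ± 0.13 (95% interval 0.18 to 0.75, edgeR adjusted p = 0.0745), and fell by a log2 difference of -1.27 from E13.5 to E16.5 p18mKO2-. Ezh2, the methyltransferase, lay at 0.29 ± 0.14 (95% interval -0.01 to 0.58). DESeq2 called 2 higher in this list.

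Genes of the ventral telencephalon stood above the E16.5 level, in tissue labelled dorsal cortex. Of 19 tested, 9 were higher (Dlx1, Dlx2, Dlx5, Gsx2, Gad2, Nkx2-1 and Six3 among them) and 0 lower, with a median of 1.58. Dlx2, a homeobox gene of GABAergic progenitors and interneurons, stood at 80.2, 103 and 91.1 CPM in E13.5 p18mKO2+ and at 26, 19.1 and 24.3 CPM in E16.5 p18mKO2- (log2 difference 1.98 ± 0.33, edgeR adjusted p = 0.00479), and at 41.1, 87.1 and 28.1 CPM in E13.5 p18mKO2-. Nkx2-1, which defines the medial ganglionic eminence, stood at 18.9, 1.37 and 11.1 CPM in E13.5 p18mKO2+ and at 0.430, 0.509 and 0.811 CPM in E16.5 p18mKO2- (log2 difference 4.15 ± 0.92, edgeR adjusted p = 0.0272). Gsx2, of the lateral ganglionic eminence, stood at 4.41, 11 and 10.3 CPM in E13.5 p18mKO2+ and at 0.921, 1.63 and 1.80 CPM in E16.5 p18mKO2- (log2 difference 2.56 ± 0.43, edgeR adjusted p = 0.00613). All early values of Dlx2, Nkx2-1 and Gsx2 lay above the E16.5 ones, which for Nkx2-1 was a condition of its choice. Nkx2-1 was low in early replicate 2. Its edgeR adjusted p was 0.107, 0.0719, 0.0972 and 0.0658 without early replicate 1 and late replicates 1, 2 and 3 in turn. Summed CPM of the list was 887, 838 and 1253 in E13.5 p18mKO2+ and 340, 331 and 485 in E16.5 p18mKO2-. The cells that carried these transcripts were not identified, and their part in other differences was not tested. Without 1 library, 4 to 8 were higher (4 without late replicate 2, 5 without early replicate 1 or late replicate 1). With the ribosomal RNA covariate, 0 were called.

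Embryonic globin genes were higher in E13.5 p18mKO2+. Hbb-y, the embryonic beta-like globin gene of primitive red cells, stood at 92, 62.9 and 277 CPM in E13.5 p18mKO2+ and at 2.46, 0.814 and 0.753 CPM in E16.5 p18mKO2- (log2 difference 6.77 ± 0.60, edgeR adjusted p = 0.000113), and at 540, 532 and 566 CPM in E13.5 p18mKO2-. Hba-x, the embryonic alpha-like globin, stood at 25.5, 20.1 and 75.7 CPM in E13.5 p18mKO2+ and at 2.15, 1.98 and 1.22 CPM in E16.5 p18mKO2- (log2 difference 4.50 ± 0.50, edgeR adjusted p = 0.000430), and at 168, 144 and 168 CPM in E13.5 p18mKO2-. Against E13.5 p18mKO2-, both genes were called lower in E13.5 p18mKO2+. The log2 differences were -1.92 for Hbb-y and -1.98 for Hba-x (edgeR adjusted p = 0.0147 and 0.00817). Every early value lay above every E16.5 value, as the rule that chose both genes required, with early replicate 3 the highest. Both genes were called in all 15 alternative fits. They were the only erythroid genes called of 11 tested. Hba-a1, an adult globin that shares reads with a near-identical copy and is uncertain for that reason, overlapped at 441, 285 and 364 CPM in E13.5 p18mKO2+ and at 291, 388 and 244 CPM in E16.5 p18mKO2-.

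Lists of markers of other cell types differed in their share of calls, beside 1.37% higher and 1.83% lower among all genes. The medians of some lists lay far from 0. Of 24 endothelial and pericyte genes, 3 (12.5%) were lower (Rgs5, Higd1b and Slco1c1) and 1 (4.17%) higher (Notch3), with summed CPM of 442, 436 and 404 against 508, 495 and 442. Without 1 library 1 to 3 endothelial and pericyte genes were lower, with 1 without early replicate 2 or 3 or late replicate 2 or 3. Of 14 microglia genes 1 was lower (P2ry12, a call lost without any 1 of the same 4 libraries), at summed CPM of 59.7, 50.1 and 40.6 against 49.8, 77.9 and 62.0. Of 15 meninges genes 0 were called by edgeR and 1 by DESeq2, with a median log2 difference of 0.46 and summed CPM of 307, 152 and 266 against 103, 162 and 167. Of 19 Cajal-Retzius, hem and choroid plexus genes 3 (15.8%) were higher, with summed CPM of 618, 800 and 546 against 459, 628 and 326. Their median log2 difference was 1.75, and their mean log2 levels did not overlap, at 0.64, -0.44 and 0.29 in E13.5 p18mKO2+ and at -1.17, -0.84 and -1.54 in E16.5 p18mKO2- relative to E13.5 p18mKO2-. The part of these cells in other differences was not tested. That count was 1 without early replicate 3 or late replicate 2, and 0 without late replicate 1 or 3. Among these, Lhx1 stood at 2.67, 0.869 and 36.6 CPM in E13.5 p18mKO2+ and at 0.307, 0 and 0.290 CPM in E16.5 p18mKO2-, so early replicate 3 carried most of its level. Its edgeR adjusted p was 0.0340, and 0.220 without that library. Ebf3 likewise stood at 18.7, 5.94 and 190 CPM in E13.5 p18mKO2+ and at 6.14, 4.37 and 4.11 CPM in E16.5 p18mKO2-, where the groups overlapped and the edgeR adjusted p was 0.0350, and 0.147 without early replicate 3.

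The remaining large differences by the naming rule were in genes of mixed roles. Slc18a2, a vesicular monoamine transporter gene, was higher at 36.9, 51.3 and 59.9 CPM in E13.5 p18mKO2+ and at 1.35, 3.97 and 4.17 CPM in E16.5 p18mKO2- (log2 difference 3.95 ± 0.53, edgeR adjusted p = 0.00135). Lhx9, a LIM homeobox gene, was higher at 41.4, 25.2 and 110 CPM in E13.5 p18mKO2+ and at 5.10, 0.509 and 1.91 CPM in E16.5 p18mKO2- (log2 difference 4.58 ± 0.80, edgeR adjusted p = 0.00713). Fgf15, a secreted FGF, was higher at 8.24, 0.594 and 18 CPM in E13.5 p18mKO2+ and at 0.491, 0 and 0.232 CPM in E16.5 p18mKO2- (log2 difference 5.23 ± 1.21, edgeR adjusted p = 0.0316), a call lost in 4 of 6 fits without 1 library (edgeR adjusted p 0.0780 and 0.0776 without early replicates 1 and 3, 0.102 and 0.0971 without late replicates 2 and 3). The groups of these 3 genes did not overlap, which the naming rule required. Dync1i1, a dynein intermediate chain gene of neurons, was lower at 20.7, 19.8 and 15.1 CPM in E13.5 p18mKO2+ and at 93, 112 and 180 CPM in E16.5 p18mKO2- (log2 difference -2.79 ± 0.30, edgeR adjusted p = 0.000387). Ccbe1, a secreted factor gene, was lower at 4.17, 3.02 and 1.54 CPM in E13.5 p18mKO2+ and at 23, 22.2 and 65.5 CPM in E16.5 p18mKO2- (log2 difference -3.67 ± 0.47, edgeR adjusted p = 0.000967). Necab1, a neuronal calcium-binding protein gene, was lower at 6.54, 5.03 and 9.60 CPM in E13.5 p18mKO2+ and at 39, 41.7 and 98.7 CPM in E16.5 p18mKO2- (log2 difference -3.08 ± 0.45, edgeR adjusted p = 0.00234). In each of these 3 the late replicate 3 value was the highest. Mlip, which encodes a lamin-interacting protein of muscle, was lower at 0.0485, 0.594 and 0.469 CPM in E13.5 p18mKO2+ and at 4.11, 2.59 and 19.9 CPM in E16.5 p18mKO2- (log2 difference -4.54 ± 1.07, edgeR adjusted p = 0.0334), with edgeR adjusted p of 0.122, 0.0771 and 0.0660 without early replicates 1, 2 and 3 and 0.139 without late replicate 3. Jakmip3, a coiled-coil protein gene, was lower at 0.194, 1.14 and 1.84 CPM in E13.5 p18mKO2+ and at 8.96, 9.41 and 20.6 CPM in E16.5 p18mKO2- (log2 difference -3.60 ± 0.76, edgeR adjusted p = 0.0214), with edgeR adjusted p of 0.0681 and 0.0647 without early replicates 1 and 2 and 0.0665 without late replicate 3. Usp43, a ubiquitin-specific protease gene, was lower, averaging 1.88 ± 0.721 and 13.4 ± 3.91 CPM (SD, n = 3 each; log2 difference -2.83 ± 0.43, edgeR adjusted p = 0.00288), and called in all 15 alternative fits. The groups of these latter 3 did not overlap, again as the naming rule required. Of 83 genes named by the rule and called, 26 were called in all 15 alternative fits and 36 in all 6 fits without 1 library.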

How the data were processed

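The members and lists were chosen with earlier results of these data known. Per the labels' protocols, polyadenylated RNA was sequenced with a directional kit. Tools named in the submitters' processing notes were cutadapt 3.4, STAR 2.7.2b and RSEM 1.2.31, with build GRCm38 (mm10). Annotation release and strand use were not given in the sources used here. For each gene, per the file headers, the authors deposited an expected count, estimated by RSEM, and a TPM. Of 55487 gene identifiers, 55227 were matched to GENCODE M21. Expected counts were rounded, 16798 genes passed filterByExpr, and TMM-scaled counts of all 12 libraries were fitted with edgeR 4.0.16 (R 4.3.3), with 1 mean per group, 8 residual degrees of freedom and a biological coefficient of variation of 0.311. The SE is the absolute log2 difference over the square root of F. Log2 CPM used a prior count of 2. Named genes were Cdkn2c, the 8 largest increases and 8 largest decreases without overlap and with mean TPM of at least 5 in the higher group (unnamed, predicted, Y-linked and mitochondrial genes excluded), up to 4 genes per list with the smallest p and up to 3 within 2-fold with the narrowest interval that differ with stage. Other genes named were chosen after their values were seen. A few genes are not reported here. On simulated counts (16798 genes, 200 changed), 38.7% of 2-fold and 62.5% of 4-fold changes were recovered, 4% of calls were false and 95.6% of intervals held the truth. Alternatives were RLE, DESeq2 1.42.0, limma-voom 3.58.1, no filter, mean CPM of at least 5, the replicate block, fits without each library in turn and the 6 libraries alone. Covariates for CT010467.1 and Y-linked expression were added once the data had been seen. Promoter sequences are from RefSeq (GRCm38.p6). Figures used matplotlib 3.10.9.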

Additional observations from a re-analysis of the deposited data

How the results depend on the processing

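The 538 genes called (230 higher, 308 lower) became 1183 (538 and 645) by DESeq2, 1318 (596 and 722) without a filter on low counts, 254 (87 and 167) with the 6 libraries alone, 193 (55 and 138) with the ribosomal RNA covariate and 271 (103 and 168) with the Y-linked covariate. RLE gave 542, limma-voom 568 and a mean CPM of at least 5 gave 572. Without 1 library the count lay between 236 and 554, with 79 to 240 higher and 157 to 360 lower. The causes were not tested. The replicate block gave 866 (403 and 463). Same-numbered libraries of the 2 groups had deviations correlated at 0.073, 0.142 and 0.283, and differently numbered ones between -0.209 and 0.091. Whether the numbers pair the samples was not tested. Of the 538 genes, 535 were also called by DESeq2, 477 by limma-voom, 233 with the 6 libraries alone and 160 with the ribosomal RNA covariate. The count for E13.5 p18mKO2+ against E13.5 p18mKO2- lay between 927 and 1805 without 1 library, and at 729 and 957 with the ribosomal RNA and Y-linked covariates. For E16.5 p18mKO2+ against E13.5 p18mKO2- these covariates gave 1790 and 2542. The distance of 0.99 was 0.65 over genes with a mean CPM of at least 5. The Cdkn2c difference lay between -1.43 and 6.91 CPM without 1 library (-0.870 without E13.5 p18mKO2+ replicate 2). With the ribosomal RNA covariate, 2 uncalled genes changed sign, Slc1a2 to -0.19 and Col1a1 to -0.11. Of the 83 named genes called, 48 lost the call with that covariate (Id2, Tle4, Lef1, Peg10, Lhx9, Dlx2 and Gsx2 among them), 37 with the Y-linked one and 11 by limma-voom (Robo3, Lhx1, Fgf15, Nkx2-1 and Ntn1 among them). With 3 libraries a group, a 2-fold difference was often not detected in simulation (38.7% recovered with 200 of 16798 genes changed). Other shares of changed genes and other depths were not simulated.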
